A study of Mus musculus with 24 samples.

Results

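The 9 genes described here encode basic helix-loop-helix (bHLH) transcription factors of neural and cardiac lineages: Neurog1, Neurog2, Neurog3, Neurod1, Neurod2, Olig1, Olig2, Hand1 and Hand2. They were chosen by name from the 20665 protein-coding genes on chromosomes 1 to 19 of the mouse build mm10, and all 9 were found. For each gene, histone mark peaks were read in a window made of the gene body and 5000 bp on each side. The cells were lung endothelium, purified by FACS, of mice that lack the DNA methyltransferase gene Dnmt3a (KO) and of wild-type mice (WT). Age, sex, strain and the way Dnmt3a was deleted, including any Cre driver, are not stated in the labels. The assay was ACT-seq, in which an antibody guides a transposase to cut and tag the DNA near a histone mark. Each of 4 marks (H3K27me3, H3K4me3, H3K27ac and H3K4me1) had 3 KO and 3 WT samples, 24 in all, but the peaks came as 1 list for each mark and genotype. No spread between samples, sequencing depth or peak height could therefore be used, and every difference below is a difference between 2 lists, with no replicate check and no test.

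bHLH factors of these families bind DNA as dimers with the widely expressed E proteins (Tcf3, Tcf4 and Tcf12), usually at the E-box CANNTG, and start neuronal, glial, endocrine or cardiac programmes in the cells that express them. Id proteins block this pairing, and Hes and Hey repressors act against it downstream of Notch. Genes of such lineage factors are typical targets of the Polycomb system in cells of other lineages. Polycomb repressive complex 2 places H3K27me3 over their promoters and gene bodies, often as wide domains. H3K4me3 marks promoters, H3K27ac active promoters and enhancers, and H3K4me1 enhancers and promoter flanks. DNMT3A is a de novo methyltransferase that adds methyl groups to the C of CG dinucleotides.

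The lists of the whole genome differed in size between the genotypes, which sets the scale for everything that follows. H3K27me3 covered 1.90 times as many bases in KO as in WT (31022 and 20918 peaks), H3K4me3 1.46 times and H3K4me1 1.19 times as many, and H3K27ac 0.733 times as many. At the ends of 12 endothelial marker genes, within 1000 bp, H3K27ac was listed in both genotypes at 11 and H3K4me3 in both at 10, and Erg had H3K4me3 in KO only with H3K27ac in neither. Of the neuronal markers, Stmn2 had H3K27ac at an end in both genotypes. H3K27ac was listed at 1 in KO and 1 in WT of 7 cardiomyocyte markers, at 2 in KO and 1 in WT of 6 lung epithelial markers, at 0 in KO and 2 in WT of 6 mesenchymal markers, and at 1 of 5 leukocyte markers (Spi1) in both. Ptprc, Cd68 and Cd3e of the leukocyte markers, Epcam, Cdh1 and Nkx2-1 of the epithelial and Sox10, Rbfox3 and Tubb3 of the neural ones had none, and the part of other cells in the results was not tested. Dnmt3a, with 8 H3K4me3 peaks in KO and 5 in WT and no H3K27me3 in either, does not test the genotype labels, since peaks do not show a deleted stretch.

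In these endothelial cells the 9 genes carried H3K27me3 and no H3K27ac. An H3K27me3 peak lay in the window of 9 of 9 genes in KO and of 8 of 9 in WT, against 55% of all protein-coding genes in KO and 49.6% in WT, and 45.8% in both. No H3K27ac peak lay in any of the 9 windows in either genotype. Over all genes, 61.8% had H3K27ac in KO and 69.4% in WT, and 29.1% had none in either. The 9 genes are short, 1674 to 4231 bp with a median of 17491 bp over all genes, so the 1964 genes within that range were also used as a background after the values were seen. Of those genes, 47.8% had H3K27me3 in KO, 40.3% in WT and 38.1% in both, and 46% lacked H3K27ac in both genotypes. A gene's window is a fixed stretch, so the values below are bases covered by peaks and not the strength of the mark.

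H3K27me3 covered more bases in KO than in WT at 8 of the 9 genes, the exception being Neurog1. This was also the direction at 75.9% of the 12161 genes with H3K27me3 in either genotype, at 81.9% of the 982 of them as long as the 9 genes, and at 89.2% of the 1414 genes that had H3K27me3 in both lists but no H3K27ac (called H3K27me3 genes without H3K27ac below), so the share among the 9 was near that background. Over the 9 windows together, H3K27me3 peaks covered 27392 bp in KO and 14248 bp in WT, a ratio of 1.92 that lay close to the 1.90 of the whole lists. With the KO list cut to its widest peaks, to the covered length of the whole WT list, the ratio was 1.04. In that setting 4 of the 9 genes had more in KO, against 32.1% of genes with the mark. Neurog3 had no peak in either list there, so it is not among the genes with the mark. In the 8 genes with the mark in both genotypes the median ratio was 1.78, against 1.83 over the 1414 genes and 1.79 over the 233 of them as long as the 9 genes, of which 90.1% had more in KO. At least 1.5 times as many bases in KO were found at 5 of the 8 genes, against 44.8% of all genes with the mark in both lists and 64.9% of the 1414.

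**Figure D1:**
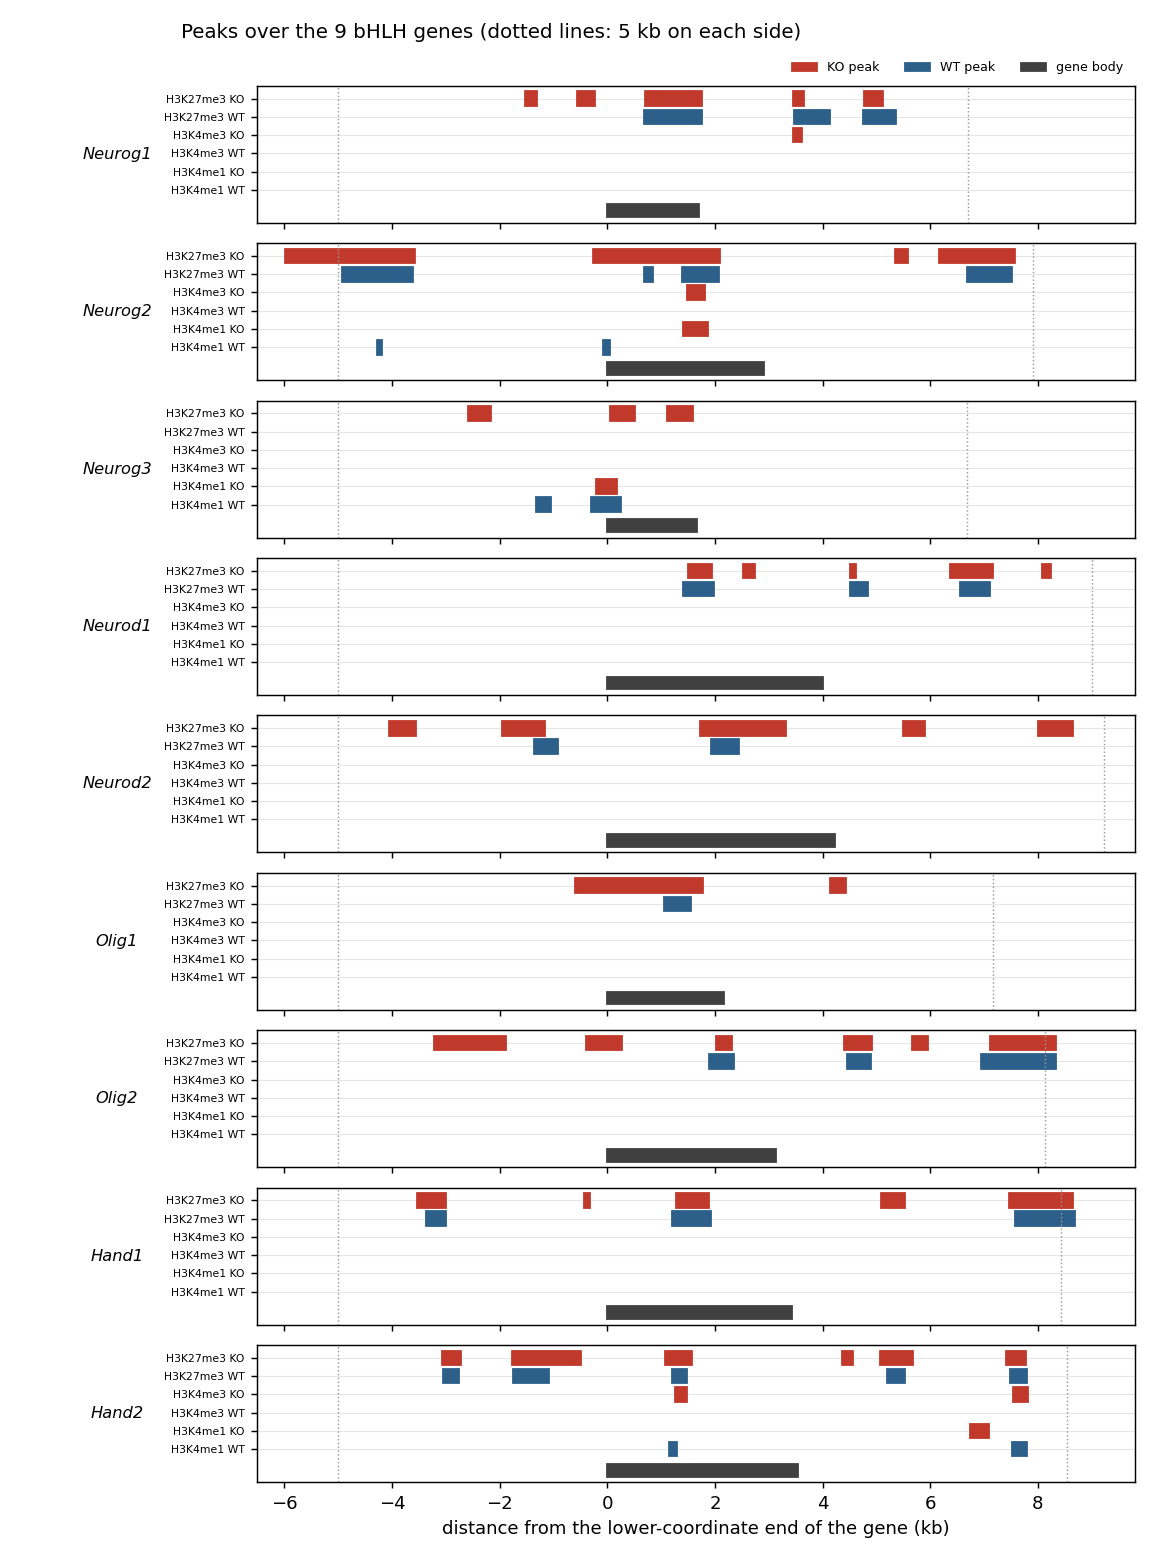
Each panel shows 1 gene, with its body as a grey bar, and the KO (red) and WT (blue) peaks of H3K27me3, H3K4me3 and H3K4me1 as boxes along the distance in kb from the lower-coordinate end of the gene. Dotted lines mark 5 kb on each side. WT H3K27me3 boxes sit under KO boxes in every panel with a WT box, and H3K4me3 boxes appear in KO at Neurog1, Neurog2 and Hand2 only. H3K27ac has no peak in any window and is not drawn.

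Each WT peak had a KO peak at its place, with 87.1% of the WT bases also covered in KO. All 24 WT H3K27me3 peaks in the 9 windows overlapped a KO peak by at least 1 bp (100%, exact Clopper-Pearson interval at 95% of 85.8 to 100), against 75.1% of the whole WT list. Of the 41 KO peaks, 23 overlapped a WT peak (56.1%, interval 39.7 to 71.5), against 48.6% of the whole KO list. These intervals cover counting error only and treat peaks as independent. The other 18 KO peaks had no WT counterpart, had a median width of 360.5 bp (119 to 1324) against 610 bp for the 23 shared ones, and reached into a gene body in 4 cases. By bases, 12405 bp were covered in both genotypes, 14987 bp in KO only and 1843 bp in WT only.

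Among the neurogenins, which commit progenitors to a neuronal or endocrine fate, each gene differed in its own way. Neurog2, at chromosome 3 from 127632733 to 127635636, drives neurogenesis in the cortex and other parts of the nervous system. It had the most H3K27me3 of the 9 in both genotypes, 5417 bp in 4 KO peaks and 3025 bp in 4 WT peaks, 42.0% and 23.4% of its window. A KO peak of 2346 bp from 127632474 to 127634819 spanned the transcription start and most of the gene, where WT had narrow peaks of 173 and 697 bp and a start outside any peak. The share of the gene body inside peaks was 71.9% in KO and 30.0% in WT. All bases covered in WT were also covered in KO.

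Neurog3, at chromosome 10 from 62133090 to 62134763, is the factor that sets up endocrine progenitors of the pancreas. It was the only 1 of the 9 with H3K27me3 in KO alone, a state found at 15.7% of genes with the mark in either genotype. With peaks under 500 bp left out, or with KO and WT lists of equal covered length, it had 0 bp in both genotypes. Its 3 KO peaks of 434, 465 and 491 bp covered 1390 bp, the lowest KO value of the 9, and the nearest WT peak lay 21.969 kb from the gene. H3K4me1 lay over the Neurog3 start in both genotypes, in a peak of 386 bp in KO and of 550 bp in WT, and a further WT peak of 288 bp lay 1042 bp upstream. The KO H3K27me3 peak of 465 bp, inside the gene, overlapped these H3K4me1 peaks of both genotypes.

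Neurog1, at chromosome 13 from 56250478 to 56252180 and a determination factor of cranial sensory neurons, was the exception to the larger cover in KO. Its H3K27me3 covered 2147 bp in 5 KO peaks and 2347 bp in 3 WT peaks, a ratio of 0.915. The central peak was almost the same, 1054 bp in KO and 1085 bp in WT, and held the start in both genotypes. The difference came from 2 peaks upstream, of 195 and 352 bp in KO and 660 and 602 bp in WT, while KO alone had peaks of 220 and 326 bp beyond the end of the gene. The direction turned with the window, being 295 bp more in KO with 1000 bp on each side and 2415 bp more with 10000 bp.

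The promoters of these 3 genes and of Olig2 are shown because the H3K27me3 or H3K4me1 peaks reach into them, H3K27me3 of both genotypes at Neurog1, H3K27me3 of KO only at Neurog2 and Olig2, and H3K4me1 of both genotypes at Neurog3, where no H3K27me3 reaches the printed stretch. Each is the 250 bases before the annotated start, 5′ to 3′ on the strand of the gene, from RefSeq on GRCm38.p6 (mm10). The start used for Neurog2 lies inside the gene as annotated here, so its stretch is part of the gene body. Capitals mark CG dinucleotides, the sites that DNMT3A can methylate. The stretches are chr13:56252181-56252430 on the minus strand for Neurog1, and on the plus strand chr3:127632886-127633135 for Neurog2, chr10:62132840-62133089 for Neurog3 and chr16:91225300-91225549 for Olig2.
Neurog1: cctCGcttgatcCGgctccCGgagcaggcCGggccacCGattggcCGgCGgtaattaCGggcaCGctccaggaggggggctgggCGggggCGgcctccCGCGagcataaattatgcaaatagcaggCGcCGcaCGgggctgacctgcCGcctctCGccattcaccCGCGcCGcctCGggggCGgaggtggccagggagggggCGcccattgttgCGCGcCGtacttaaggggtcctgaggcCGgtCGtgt
Neurog2: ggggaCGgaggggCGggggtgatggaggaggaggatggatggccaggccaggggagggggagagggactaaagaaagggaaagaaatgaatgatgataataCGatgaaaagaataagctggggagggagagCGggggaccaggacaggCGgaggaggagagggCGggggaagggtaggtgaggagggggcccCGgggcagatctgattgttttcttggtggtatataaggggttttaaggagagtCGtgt
Neurog3: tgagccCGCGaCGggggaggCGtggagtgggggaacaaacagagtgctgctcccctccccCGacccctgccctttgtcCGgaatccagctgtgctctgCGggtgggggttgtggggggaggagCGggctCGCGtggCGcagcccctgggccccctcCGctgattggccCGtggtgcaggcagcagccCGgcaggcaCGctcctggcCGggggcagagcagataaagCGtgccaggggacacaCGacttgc
Olig2: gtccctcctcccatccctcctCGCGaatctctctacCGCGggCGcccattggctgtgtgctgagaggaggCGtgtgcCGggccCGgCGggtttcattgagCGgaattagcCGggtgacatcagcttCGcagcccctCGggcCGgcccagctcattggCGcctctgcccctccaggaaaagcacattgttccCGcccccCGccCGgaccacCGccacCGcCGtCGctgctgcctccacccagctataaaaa

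These 4 promoters differed widely in CG content. Counted from 250 bases before to 50 after the start, the 300 bases held 32 CG dinucleotides at Neurog1, 25 at Olig2, 19 at Neurog3 and 10 at Neurog2. The 7 of the 9 genes matched in the promoter table held 10 to 32, with a median of 14 over 20085 promoters of protein-coding genes, and 57.9% of those promoters held 10 or more. Inside H3K27me3 peaks lay all 300 bases in KO and 0 in WT at both Neurog2 and Olig2, 102 bases in KO and 107 in WT at Neurog1, and 5 bases in KO, all after the start, and 0 in WT at Neurog3. H3K4me1 covered 262 bases in KO and 300 in WT at Neurog3. The E-box CANNTG, which reads the same on both strands, was found in 5 of the 7 promoters and in 68.7% of all promoters. The form CAGATG on either strand, which is 1 kind of CANNTG, was found at Neurod2 and Hand2 and in 14.6% of all promoters. Such matches are letters in a window and not sites.

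The transcription start itself lay inside an H3K27me3 peak at 3 of these 7 genes in KO (Neurog1, Neurog2 and Olig2) and at 1 in WT (Neurog1). The shares over 16457 genes with an annotated start were 34.7% in KO and 29.4% in WT, and over the 1043 H3K27me3 genes without H3K27ac among them they were 60% and 44.8%. For these shares a gene with several annotated starts counted if any of them lay in a peak. A single start was used for each of the 7 genes.

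The 2 NeuroD genes, which act downstream of neurogenins in neuronal and endocrine differentiation, differed in the ratio of KO to WT cover. Neurod2, at chromosome 11 from 98325415 to 98329645 and active in maturing neurons, had 3916 bp in 5 KO peaks and 949 bp in 2 WT peaks, a ratio of 4.13. A KO peak of 1591 bp from 98327135 to 98328725 covered 37.6% of the gene, and the WT peak inside it, 509 bp wide, covered 12.0%. KO peaks of 498, 395 and 640 bp on both sides had no WT counterpart. The last of them lies beside Gm33099, the only other protein-coding gene that reaches into any of the 9 windows. With Gm33099 and 1000 bp on each side of it left out, Neurod2 had 3307 bp in KO and 949 bp in WT.

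Neurod1, at chromosome 2 from 79452637 to 79456636, is needed for endocrine cells of the pancreas and for granule neurons. Here H3K27me3 covered 1754 bp in 5 KO peaks and 1466 bp in 3 WT peaks, a ratio of 1.20. Cover over the gene body was 668 bp in KO and 578 bp in WT. The direction of this small difference depended on narrow peaks: without peaks under 200 bp KO minus WT was -2 bp, and with 1000 bp on each side of the gene it was -117 bp. Neither NeuroD gene had an H3K4me3 or H3K4me1 peak in either genotype.

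Olig1 and Olig2, which specify and mature oligodendrocytes (Olig2 also motor neurons), are neighbours on chromosome 16. Olig1, from 91269769 to 91271939, had the highest ratio of the 9, 5.17, with 2669 bp in 2 KO peaks and 516 bp in a single WT peak. One KO peak of 2375 bp, from 91269173 to 91271547, covered 81.9% of the gene, against 23.8% in WT. Olig2, from 91225550 to 91228677, had 4128 bp in 6 KO peaks and 2112 bp in 3 WT peaks, a ratio of 1.95. Its 3 WT peaks, of 471, 447 and 1401 bp, each had a KO partner of 292, 532 and 1230 bp, and the excess in KO came from peaks without one, of 1324 and 298 bp in the flanks and of 659 bp over the start. The last base of the widest shared Olig2 peak, 91233884, was the same in both lists.

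The stretch between the 2 Olig windows, 31091 bp that were looked at after the values were seen, also carried H3K27me3 and no other mark. It held 7 KO peaks with 5336 bp and 4 WT peaks with 4102 bp. No other gene window of the 9 lies in it. The nearest H3K27ac peak was 85.072 kb from Olig1 in KO and 91.2 kb in WT, and 128.334 kb from Olig2 in KO and 134.462 kb in WT.

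Of the 2 Hand genes, which pattern the ventricles of the embryonic heart, Hand2 also acts in sympathetic neurons and limb buds and Hand1 in the trophoblast. Hand2, at chromosome 8 from 57320983 to 57324517, had 3302 bp in 6 KO peaks and 1868 bp in 5 WT peaks, a ratio of 1.77. Each of the 5 WT peaks had a wider KO partner at the same place, the largest being 1275 bp in KO and 660 bp in WT at 57319214 to 57320488, within the noncoding gene Hand2os1. Only a KO peak of 208 bp stood without a partner. With lists of equal covered length, KO minus WT was -593 bp at Hand2 and -989 bp at Hand1. Hand2 thus had nearly the same places in both lists with wider peaks in KO, whereas unshared KO peaks made most of the difference at Olig2.

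Hand1, at chromosome 11 from 57828713 to 57832147, differed less. Its H3K27me3 covered 2669 bp in 5 KO peaks and 1965 bp in 3 WT peaks, a ratio of 1.36, and over the gene body 610 bp in KO and 723 bp in WT. The 3 shared peaks had 530, 610 and 1198 bp in KO and 374, 723 and 1115 bp in WT, and the peaks of 119 and 434 bp were in KO only. No H3K4me3 or H3K4me1 peak lay in the window of Hand1 or of either Olig gene in either genotype.

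**Figure D2:**
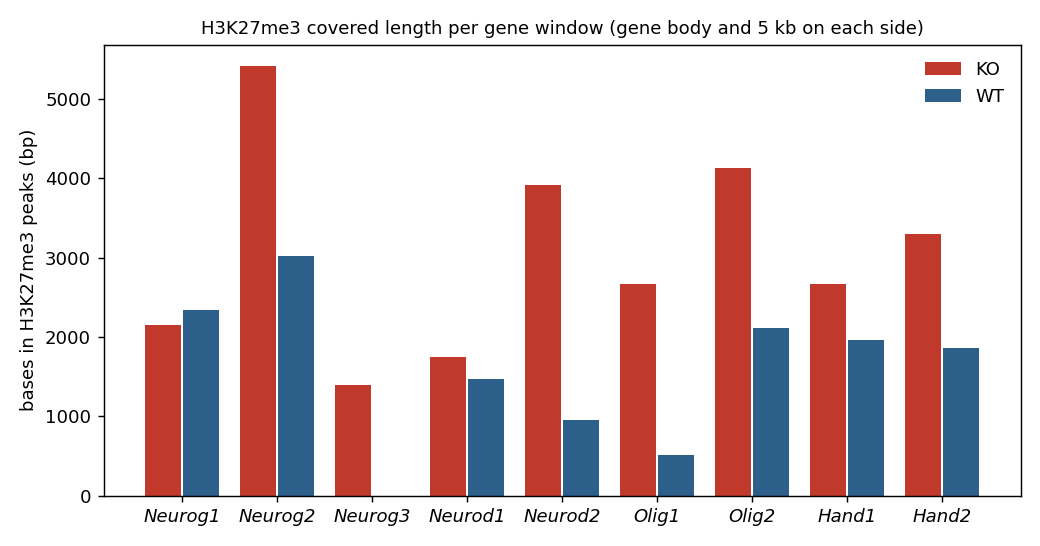
Bars give the bases of each window inside H3K27me3 peaks, in bp, for KO (red) and WT (blue), with 1 list per bar and no error. KO bars run from 1390 bp at Neurog3 to 5417 bp at Neurog2 and are taller than the WT bars at 8 genes, and the WT bar is taller at Neurog1.

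The order of the genes was not the same in the 2 lists. In KO it ran from Neurog2 (5417 bp) through Olig2 (4128), Neurod2 (3916), Hand2 (3302), Olig1 and Hand1 (2669 each), Neurog1 (2147) and Neurod1 (1754) to Neurog3 (1390). In WT it ran from Neurog2 (3025 bp) through Neurog1 (2347), Olig2 (2112), Hand1 (1965), Hand2 (1868), Neurod1 (1466), Neurod2 (949) and Olig1 (516) to Neurog3, with none. Neurog2 was first and Neurog3 last in both, while Neurog1 was second in WT and seventh in KO. With 1 list a genotype, no spread is known by which neighbours in these orders could be told apart. By share of the window covered, all 9 lay above at least 94.9% of the protein-coding genes in KO, and the 8 with a peak lay above at least 91.1% in WT. This ranking includes genes with no peak, and a short window raises the share for the same bases. Median cover of the 9 was 2669 bp in KO and 1868 bp in WT. Over the 233 H3K27me3 genes without H3K27ac of like length it was 2370 bp in KO and 1246 bp in WT.

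H3K27me3 domains were longer in KO at all 9 genes. A domain was the chain of peaks, with gaps of at most 3000 bp, that held the most covered bases among those touching the window, and was measured from first to last base. A longer domain in KO was found at 73.2% of genes with H3K27me3 in either genotype, at 81.5% of the 1414 H3K27me3 genes without H3K27ac, and at 85% of the 233 of like length. Neurod2 had the longest, 18.039 kb with 8 peaks in KO and 3.797 kb with 2 peaks in WT. Olig2 had 12.79 kb in KO and 6.455 kb in WT, and Hand2 10.837 kb in KO and 4.543 kb in WT. The shortest were those of Hand1, 3.569 kb in KO and 1.115 kb in WT, and of Olig1 in WT, a single peak of 516 bp against 5.023 kb in KO. This order of sizes holds for the gap of 3000 bp only. With gaps of up to 5000 bp, the KO domain was 26.444 kb at Hand2, 18.042 kb at Hand1 and 18.039 kb at Neurod2. With gaps of up to 1000 bp it was 2.572, 1.198 and 1.591 kb at these genes.

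Chains reflect gaps as well as peaks, and at some genes they were different stretches in the 2 lists. At Neurog2 the longest-covered chain lay beyond the high-coordinate end of the gene in KO, from 127638076 to 127644104, and on the other side in WT, from 127625341 to 127629131, so the 2 sizes do not describe 1 domain. At Hand1 both chains lay beyond the high-coordinate end of the gene, within the noncoding gene Gm32915. They ran from 57833801 to 57837369 in KO and from 57836280 to 57837394 in WT. The KO chain of Neurod2 ended at 98336456, inside the neighbouring gene Gm33099. Neurog1 had a longer domain in KO, 6.661 kb against 4.683 kb in WT, although fewer of its bases were covered. Neurod1 differed least in proportion, 6.751 kb in KO and 5.707 kb in WT. Neurog3 had 4.18 kb in KO and none in WT.

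**Figure D3:**
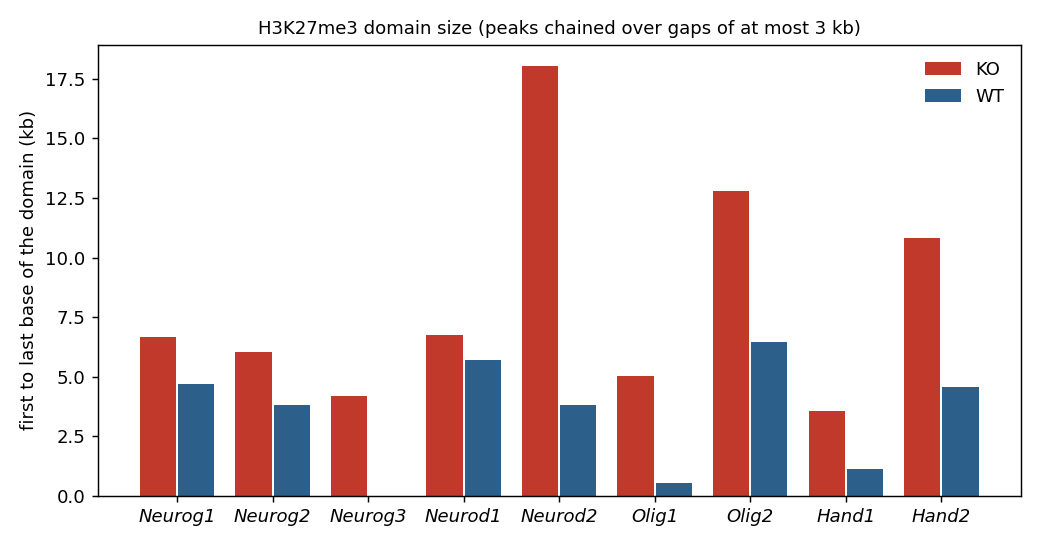
Bars give the H3K27me3 domain size in kb for KO (red) and WT (blue), with 1 list per bar and no error. Sizes run from the first to the last base of peaks chained over gaps of at most 3000 bp. Every KO bar is taller than its WT bar, from 3.569 kb at Hand1 to 18.039 kb at Neurod2 in KO, and Neurog3 has no WT bar.

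H3K4me3 appeared at 3 of the 9 genes in KO and at none in WT. The KO-only state was found at 8.54% of all genes and 8.71% of genes of like length, at 18% of the 1414 H3K27me3 genes without H3K27ac, and at 21.5% of those of like length. In WT, H3K4me3 was listed at 12.7% of the 1414 genes and 6.44% of those of like length. The 4 KO peaks were narrow, 166 to 349 bp, and no peak of 500 bp or more was among them. With KO and WT lists of equal covered length, 0 of the 9 genes had H3K4me3 in KO. Each of the 4 overlapped an H3K27me3 peak of KO and 1 of WT, and none overlapped a transcription start. Such a double overlap was found at 17.1% of the 11004 KO-only H3K4me3 peaks of the genome. That share is not a like background, since the 4 peaks lie in windows with H3K27me3 in both lists. No share is given here for KO-only peaks in such windows.

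At Neurog2 the H3K4me3 peak of KO, from 127634205 to 127634553 (349 bp), lay in the gene body 1069 bp past the start. It lay within the KO H3K27me3 peak that spans the start and over an H3K4me1 peak of 465 bp that was also in KO only. The WT list had H3K4me1 elsewhere, in peaks of 99 and 124 bp, the second 354 bp upstream of the start. H3K27me3, H3K4me3 and H3K4me1 thus met in KO at a place where WT had H3K27me3 alone.

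Hand2 had H3K4me3 peaks in KO from 57322236 to 57322469 (234 bp), 1253 bp past the start within the gene, and from 57328515 to 57328795 (281 bp), beyond its end. In WT each of these places had an H3K4me1 peak instead, of 149 and 276 bp, and neither had H3K4me1 in KO. The only H3K4me1 peak of KO, 355 bp wide, lay 6739 bp past the start and overlapped none of WT. Neurog1 had a KO peak of 166 bp, from 56253929 to 56254094 and 1749 bp upstream of the start, with no H3K4me1 in either genotype. That peak was under 200 bp, and without such peaks 2 of the 9 genes had H3K4me3 in KO.

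H3K4me1 was listed at 3 of the 9 genes in KO and at the same 3 in WT (Neurog2, Neurog3 and Hand2), against 57.5% of all genes in KO and 62.8% in WT, and against 18.2% and 26.9% of the 1414. Its cover was 465 bp in KO and 223 bp in WT at Neurog2, 386 bp and 838 bp at Neurog3, and 355 bp and 425 bp at Hand2. Of 3 KO and 6 WT peaks, a single pair overlapped, at the Neurog3 start. The nearest H3K27ac peak lay 26.668 to 162.363 kb from the 9 genes in KO and 12.674 to 134.462 kb in WT. Neurog1 had the closest in WT, at 12.674 kb, where the nearest of KO was at 114.648 kb. Such distances were not measured for other genes, so whether these are long was not tested. The H3K27ac list held 44484 peaks in KO and 81112 in WT, and the part of list size in these distances was not tested.

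**Figure D4:**
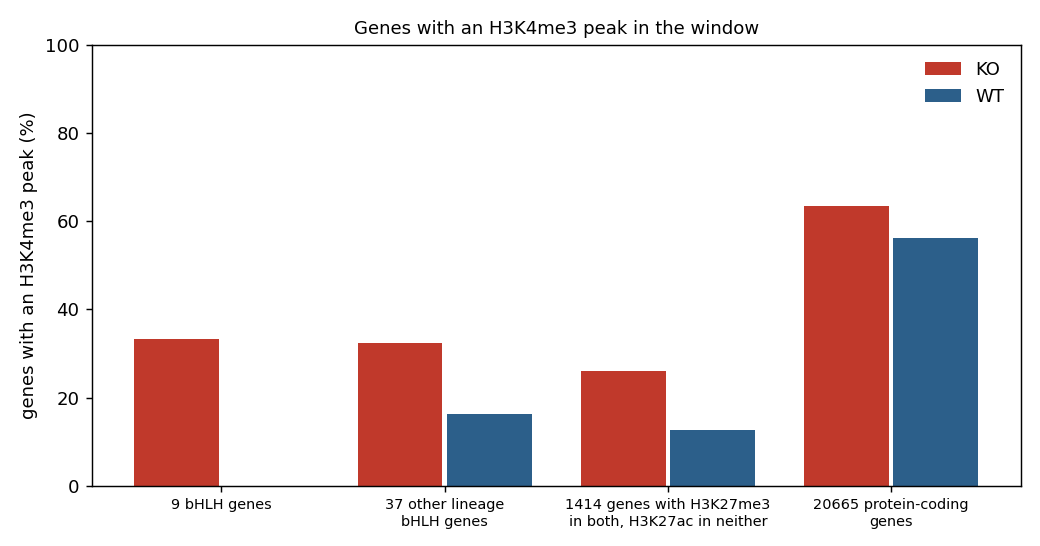
Bars give the share of genes, in percent, with an H3K4me3 peak in the window in KO (red) and WT (blue). The shares are 33.3% in KO and 0 in WT for the 9 genes, 32.4% and 16.2% for 37 other lineage bHLH genes, 26% and 12.7% for the 1414 H3K27me3 genes without H3K27ac, and 63.4% and 56.2% for all protein-coding genes.

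Other lineage bHLH genes also carried H3K27me3 in most cases, with more covered bases in KO at most of them. Of 37 such genes, 32 had H3K27me3 in KO and 29 in WT, against 55% and 49.6% of all genes. More covered bases in KO were found at 29 of the 33 with the mark in either genotype. The shares were 75.9% over all such genes and 89.2% over the 1414 H3K27me3 genes without H3K27ac. Over the 28 with H3K27me3 in both, the median ratio was 1.82, against 1.83 over the 1414. The KO-only H3K4me3 state was found at 8.54% of all genes and at 18% of the 1414. H3K4me3 was listed at 12 of the 37 in KO and 6 in WT, 5 of them in both genotypes and 7 in KO alone. Among the 7 were Atoh1, the factor of inner ear hair cells (318 bp of H3K4me3 in KO, with 5065 bp of H3K27me3 in KO and 3886 bp in WT), Bhlhe22 (489 bp, with 3773 and 1111 bp), Ascl4 (436 bp, with 2368 and 1054 bp) and Bhlhe23 (123 bp, with 3457 and 1798 bp). Myf5 and Myog, muscle determination and differentiation factors, had H3K27me3 in KO only, 813 bp and 541 bp. Tal1, a blood and endothelial factor named after its values were seen, was the gene with H3K27me3 in WT only, 0 bp in KO and 849 bp in WT. Bhlha15 was the gene with H3K4me3 in WT only (388 bp), and Lyl1, of the same family as Tal1, had H3K4me3 and H3K27ac in both genotypes with 453 bp of H3K27me3 in KO only.

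The partners and repressors of these factors carried active marks. Of 16 genes (3 E proteins, 4 Id genes and 9 Hes and Hey genes), 14 had H3K4me3 in both genotypes and 14 had H3K27ac in both. Over all genes, 63.4% had H3K4me3 in KO and 56.2% in WT, and 61.8% had H3K27ac in KO and 69.4% in WT. H3K27me3 was in both at 13 of the 16, against 45.8% of all genes. Each of the 13 had more covered bases in KO, as did 75.9% of genes with the mark in either genotype. Their median ratio was 1.89, against 1.40 over all genes with the mark in both lists. Heyl, a Notch target, was the gene with H3K4me3 in KO only, 525 bp beside 3405 bp of H3K27me3 in KO and 1254 bp in WT. All 3 E proteins, the partners of neural and cardiac bHLH factors, were among the genes with both active marks in both genotypes.

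The genes most like the mean of the 9 over the 8 lists, by Euclidean distance of covered bases, were Cdk5r2 (distance 190.4 bp), Adcy8 (228.6 bp), Mapk8ip1 (228.9 bp), Fndc5 (245.2 bp) and Hoxc11 (271.4 bp). The mean of the 9 was 3044 bp of H3K27me3 in KO and 1583 bp in WT, with 114.4 bp of H3K4me3 in KO and none in WT. Cdk5r2 had 2998 bp of H3K27me3 in KO and 1541 bp in WT, and Adcy8, the only 1 of the 5 with H3K4me3, had 116 bp of it in KO. These likenesses rest on 8 values a gene, most of which are 0.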

How the data were processed

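The authors deposited positions and widths of peaks in bp, in a list per mark and genotype, without a height or score. The submitters' processing notes name MACS2 2.1.2.1, Bowtie2 2.2.6, Trim Galore 0.4.4, deepTools 3.1.1, cutadapt 1.14 and SAMtools, and the builds mm10 and R64. Per the labels' protocols, yeast nuclei were added to the cells. Which tool did what, the peak threshold, any scaling to yeast and any pooling of the 3 samples per group are not stated there, and depth is unknown.

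Peaks, covered bases and domains were counted in Python 3.11.15 with pandas 2.3.3, numpy 2.4.6 and scipy 1.17.1, and plotted with matplotlib 3.10.9. Not every marker gene of the lists is reported here. Gene positions came from RefSeq on GRCm38.p6, whose table has no exons. Against a count base by base on chromosome 19, 0 of 5640 window and list pairs differed. A mark was present if a peak overlapped the window by at least 1 bp. The 9 genes and all gene lists were chosen with earlier results of these data known. Named genes of the lists were those whose H3K4me3 or H3K27me3 presence differed between genotypes, up to 8 a list in alphabetical order. Alternatives were other windows, wider peaks alone, lists of equal number or length, other gaps and a stricter overlap.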

Additional observations from a re-analysis of the deposited data

How the results depend on the processing

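The alternatives were windows with 1000 or 10000 bp on each side, peaks under 200 or under 500 bp left out, equal numbers of the widest peaks from both lists of a mark, an equal covered length of the widest peaks, neighbouring genes left out, domain gaps of 1000 or 5000 bp, and an overlap of at least 50% of each peak for shared peaks. H3K27ac in either genotype and H3K4me3 in WT stayed at 0 of the 9 genes with 10000 bp on each side. The other alternatives that changed windows, peaks or lists only remove bases or peaks, so they could not change these counts of 0. A longer domain in KO was found at 7 to 9 genes with peaks under 200 bp left out, with equal numbers and with the other gaps. Domains were not recomputed with peaks under 500 bp left out or with equal covered length, so their dependence on these is unknown. Of the 23 shared KO peaks, 17 were shared at 50% overlap. The setting that changed most was equal covered length, which shortens the KO lists of H3K27me3 and H3K4me3 by their narrow peaks. There 4 genes had more H3K27me3 in KO, against 32.1% of all genes with the mark, and Neurog3 had none in either list. The summed ratio was 1.04 and the median ratio 1.11, and 0 genes had H3K4me3 in KO, and so 0 in KO only. With peaks under 500 bp left out, H3K4me3 was at 0 genes in KO and 0 in KO only, and H3K4me1 at 0 in KO and 1 in WT. In both cases fewer peaks remain by construction. For single genes, KO minus WT H3K27me3 cover turned at Neurog1 from a deficit to 295 bp (1000 bp window) and 2415 bp (10000 bp window). At Neurod1 it turned to -117 bp (1000 bp window), -2 bp (peaks under 200 bp left out), -343 bp (under 500 bp left out), -223 bp (equal numbers) and -1466 bp (equal length). With equal length it was -989 bp at Hand1 and -593 bp at Hand2. Of the 146 values recomputed, 111 stayed within 1.5 times of the reported value in the same direction, 26 moved further and 9 turned direction. The 111 include the counts of 0 that most alternatives could not change. No paired analysis was possible because each group has a single peak list, for which leaving out replicates could not be run either.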

Other observations

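Genes of the programmes in which the 9 factors act carried H3K27me3 as well. Of 24 such genes found on chromosomes 1 to 19, 18 had H3K27me3 in KO and 17 in WT, against 55% and 49.6% of all genes. All 18 had more covered bases in KO, against 75.9% of genes with the mark and 89.2% of the 1414 H3K27me3 genes without H3K27ac. The median ratio was 1.52 over 17, against 1.40 over all genes with the mark in both lists and 1.83 over the 1414. The KO-only H3K4me3 state was found at 8.54% of all genes and at 18% of the 1414. Here H3K4me3 was in KO only at 4 of the 24, all 4 with H3K27me3 in both genotypes. They were Eomes, a T-box factor of cortical progenitors (1666 bp of H3K4me3), Pdgfra, the receptor of oligodendrocyte precursors and of mesenchyme (729 bp), Nkx2-2, a factor of endocrine and glial progenitors (697 bp), and Phox2a, a factor of sympathetic neurons (132 bp). Nkx2-2 had 9278 bp of H3K27me3 in KO and 6139 bp in WT, and Phox2a 4207 bp in KO and 3074 bp in WT. Th, the gene of tyrosine hydroxylase, had H3K27me3 in KO only (4288 bp), and Cspg4 had H3K4me3 in WT only (161 bp). H3K27me3 was listed in neither genotype at the other 6. H3K27ac was in both genotypes at 6 of the 24 genes and in WT only at 5. Over all genes, 61.8% had H3K27ac in KO and 69.4% in WT, from lists of 44484 and 81112 peaks. The share of all genes with H3K27ac in WT only is not given, so whether the 5 are many was not tested.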
